A study of Mus musculus with 12 samples.

Results

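The genes described here encode the Fraser complex of the basement membrane (Fras1, Frem1 and Frem2), its trafficking adaptor Grip1, the integrin ligand nephronectin (Npnt) and 4 linkers of basement membrane networks (Nid1, Nid2, Hspg2 and Agrn). They were chosen by symbol with earlier results of these data known, and all 9 were measured, among 22180 genes in all. Where a gene had several probe sets, the brightest on average stood for it, which among the 9 concerned only Nid1.

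Expression was measured on 12 single-channel Affymetrix arrays of total lung RNA from mouse embryos at E14.5, when the airways branch. Yy1 mutants carried 2 floxed Yy1 alleles with 1 Shh-Cre allele (Yy1flox/flox;Shh+/Cre), Dicer mutants carried 2 floxed Dicer alleles with the same Cre allele (Dicerflox/flox;Shh+/Cre), and controls carried the Cre allele alone (Shh+/Cre), with 4 specimens per genotype. All 3 groups therefore shared the Cre allele, which sits at Shh, a gene of the lung epithelium at this stage, so floxed alleles in mesenchyme, vessels and blood were not its main target. Whether a specimen held 1 embryo or several, and whether specimens came from separate litters, is not given in the sources used here, so the p-values measure only the spread between these specimens.

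Basement membranes are sheets of laminin and collagen IV networks beneath epithelia, joined by nidogens and by the heparan sulphate proteoglycans perlecan and agrin. FRAS1, FREM1 and FREM2 form a complex in the embryonic basement membrane that anchors epithelium to mesenchyme, and its loss causes Fraser syndrome and related conditions. In mice, loss of Fras1 or of the integrin chain Itga8 also disturbs the separation of lung lobes. In mouse tissues the Fraser proteins are needed to place nephronectin, a ligand of integrin alpha8 beta1, in the basement membrane.

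The promoter windows of Frem2, Frem1 and Npnt are shown because Frem2 and Frem1 were lower by the same amount in Yy1 mutants while Npnt was higher on average in both mutants. For Npnt in Yy1 mutants the groups overlapped, and the call passed in only 8 of 22 alternative fits, as given below. Windows run from 250 bases before to 50 after the RefSeq start (GRCm38.p6, minus strand for all, at chr3:53657306-53657605, chr4:83052117-83052416 and chr3:132950242-132950541), and Frem1 and Npnt are shown for the furthest upstream start. Capitals mark the letters CCAAT or GGGCGG on either strand.
Frem2: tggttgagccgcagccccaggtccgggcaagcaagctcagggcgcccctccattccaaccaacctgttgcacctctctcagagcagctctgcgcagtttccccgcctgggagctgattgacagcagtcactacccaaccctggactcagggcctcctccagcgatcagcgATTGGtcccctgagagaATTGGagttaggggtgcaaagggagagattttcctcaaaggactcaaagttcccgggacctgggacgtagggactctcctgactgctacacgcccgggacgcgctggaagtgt
Frem1: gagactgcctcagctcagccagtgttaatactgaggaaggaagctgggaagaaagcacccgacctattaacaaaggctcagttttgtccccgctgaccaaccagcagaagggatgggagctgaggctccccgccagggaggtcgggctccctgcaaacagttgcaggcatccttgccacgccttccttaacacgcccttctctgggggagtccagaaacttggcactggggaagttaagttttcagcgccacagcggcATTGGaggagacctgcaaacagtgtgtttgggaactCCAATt
Npnt: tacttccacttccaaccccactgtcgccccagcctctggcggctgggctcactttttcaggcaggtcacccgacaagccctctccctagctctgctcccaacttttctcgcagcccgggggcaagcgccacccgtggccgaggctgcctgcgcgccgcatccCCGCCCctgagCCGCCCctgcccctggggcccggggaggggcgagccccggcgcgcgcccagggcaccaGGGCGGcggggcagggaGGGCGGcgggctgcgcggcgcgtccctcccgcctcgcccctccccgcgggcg

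Frem2 and Frem1 each held 2 CCAAT matches and 0 GGGCGG matches in these windows, and Npnt held 4 GGGCGG matches and 0 CCAAT matches. This was so only for the starts shown, since the other Frem1 window held 0 CCAAT matches at 46.3% GC and the other Npnt window 0 GGGCGG matches at 68.0% GC. Among all 32851 RefSeq windows of 300 bases, 37.4% held CCAAT and 35.7% held GGGCGG. The windows shown were 60.3% GC for Frem2, 55.7% for Frem1 and 76.7% for Npnt, and the median of all windows was 52.7%. Of the 9 genes, 7 had at least 1 window, 12 windows together. The letters AANATGGC, searched on both strands as a core motif of Yy1, were in 0 of the 12 and in 6.05% of all windows. Such matches describe the letters of these windows only.

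Levels are the deposited log2 values, and a difference of 1 is a 2-fold change. The genotypes were compared with limma, fitted over all genes and all 12 arrays, and a change was called where the p-value, adjusted by Benjamini-Hochberg over the 22180 genes, was under 0.05. Of all genes, 6.61% changed in Yy1 mutants against controls (2.77% higher and 3.84% lower), 8.75% in Dicer mutants against controls (4.78% higher and 3.97% lower) and 4.96% between Yy1 and Dicer mutants (1.57% higher and 3.39% lower in Yy1 mutants). Without Dicer mutant 4 the counts behind the last shares were smaller, 1275 genes in place of 1940 and 726 in place of 1101. Against these shares, 3 of the 9 genes changed in Yy1 mutants (Npnt higher, Frem1 and Frem2 lower), 4 in Dicer mutants (Fras1, Npnt and Nid2 higher, Frem1 lower), and 3 between the mutants (Grip1 higher in Yy1 mutants, Fras1 and Frem2 lower in them). Because the 9 genes were chosen with earlier results of these data known, these counts are a description and not a test of the set. The median change of the 9 genes was -0.03 in Yy1 mutants and 0.08 in Dicer mutants, and that of all genes 0.002 and -0.028. Both mutants were set against the same 4 controls. No member changed by as much as 2-fold, and in a test against a minimum change of 1.2-fold 0 of the 9 passed in either mutant.

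The array medians lay between 5.99 and 6.08, and arrays correlated at 0.978 to 0.991 across probe sets. The Y-linked gene Eif2s3y read 7.99 and 5.92 in Yy1 mutants 2 and 3 and 7.84 in Dicer mutant 4, and 3.73 to 4.48 on the other 9 arrays, so calls that were lost without these 3 arrays are named. In the same order, Y-linked Uty read 8.52, 5.14 and 8.28 there and Kdm5d 7.62, 4.7 and 7.7. Xist read 8.55, 11.11 and 9.64 on them and 11.15 to 11.31 in controls. All 3 arrays were of mutants, the titles give no sex, and whether specimens mixed the sexes was not tested. The targeted gene Yy1 averaged 8.84 ± 0.104 in Yy1 mutants and 9.03 ± 0.0710 in controls (SD, n = 4 each; limma adjusted p = 0.125), and Dicer1 averaged 8.19 ± 0.115 in Dicer mutants and 8.81 ± 0.165 in controls (adjusted p = 0.00127). The positions of these probe sets against the deleted exons were not looked up here, so neither level is a full check of deletion.

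Most epithelial markers were lower in both mutants. Of 20, 15 fell and 0 rose in Yy1 mutants, and 13 fell and 1 rose in Dicer mutants, with medians of -0.62 and -0.36. For this and the other marker lists, the shares of all genes that rose and fell were 2.77% and 3.84% in Yy1 mutants. In Dicer mutants they were 4.78% and 3.97%. In Dicer mutants the markers were uneven, from -2.00 for Sox2 to 0.67 for Spint1. The 6 not called there included Epcam at 0.11 (limma adjusted p = 0.336) and Cdh1 at -0.32 (0.138). The log2 summed level of the 20 markers ran from 12.37 to 12.73 in Yy1 mutants, 12.85 to 13.13 in Dicer mutants and 13.27 to 13.64 in controls. The lowest value of a marker on any array was 5.26, below the array medians of 5.99 to 6.08. Of 15 mesenchymal markers, 6 rose in Yy1 mutants and 7 in Dicer mutants and 0 fell in either, with summed levels of 14.29 to 14.41 in Yy1 mutants, 14.29 to 14.43 in Dicer mutants and 14.08 to 14.13 in controls. Smooth muscle markers went the other way, and 7 of 9 fell in Yy1 mutants and 8 of 9 in Dicer mutants, with medians of -1.16 and -1.14. Their summed levels were 11.95 to 12.32 in Yy1 mutants, 12.10 to 12.32 in Dicer mutants and 12.83 to 13.02 in controls. Endothelial markers rose in Dicer mutants, 8 of 11, with summed levels of 13.21 to 13.32, against 12.76 to 13.00 in controls, and 1 of 11 rose in Yy1 mutants. The part of these shifts in the results below was not tested, and in RNA of a whole tissue sample fewer cells of a type and less RNA per cell cannot be told apart.

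**Figure D1:**
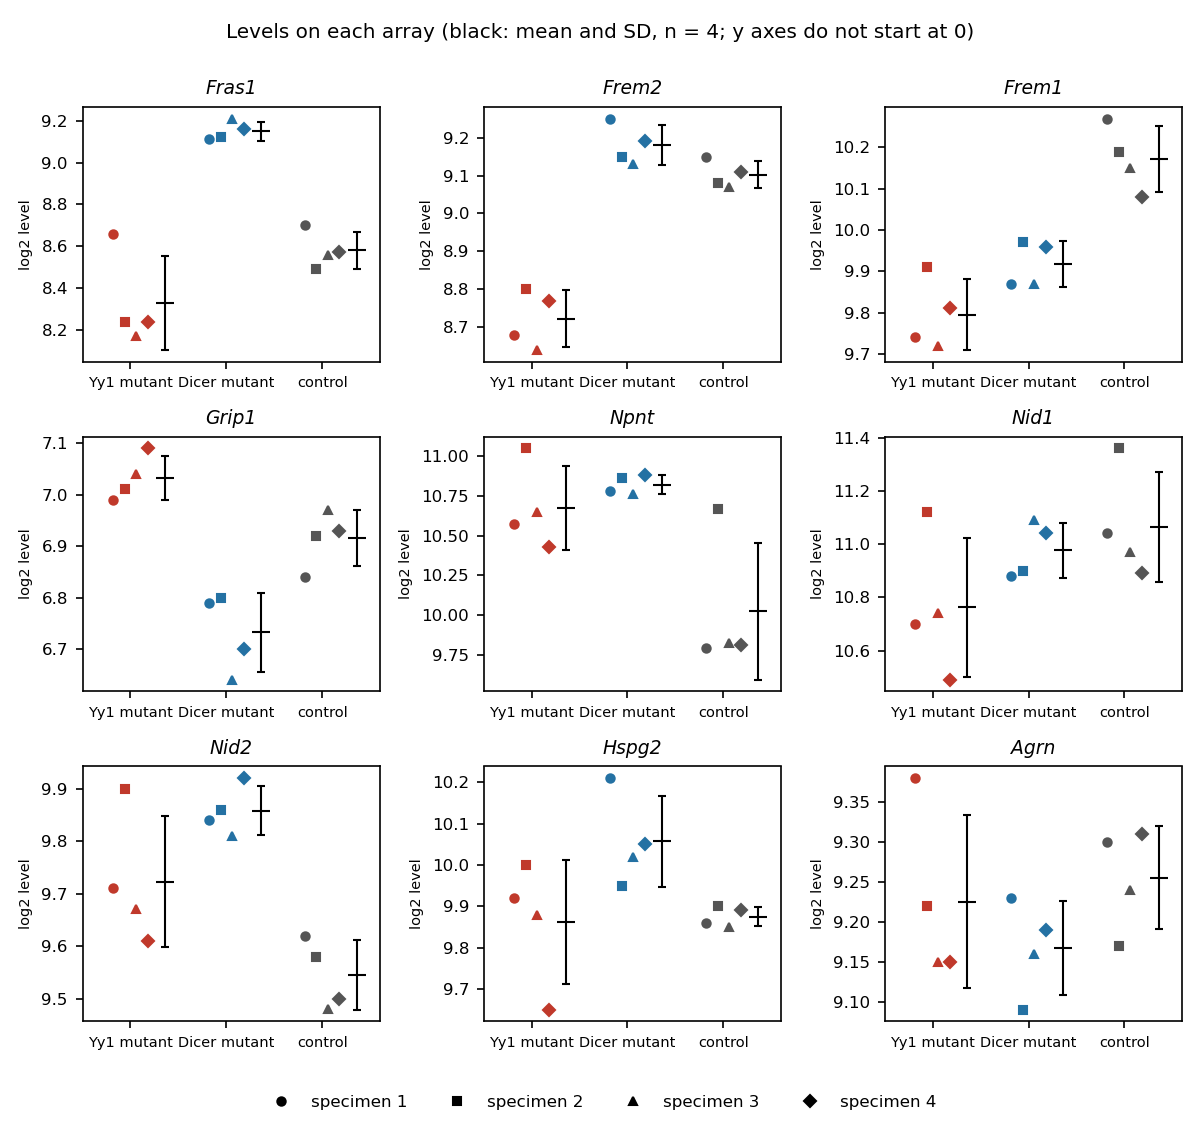
Log2 levels of the 9 genes (y axes, each on its own range) by genotype (x axis), with a point per array shaped by specimen number and the mean with SD (n = 4) in black. Fras1 was highest in the Dicer mutants at 9.11 to 9.21, Frem2 lowest in the Yy1 mutants at 8.64 to 8.80, and Npnt in control 2 (10.67) stood apart from the other 3 controls.

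The 3 genes of the Fraser complex differed in how they moved. Frem1 fell in both mutants, Frem2 fell in Yy1 mutants and did not pass in Dicer mutants, and Fras1 rose in Dicer mutants. FRAS1 and FREM2 are membrane proteins whose shed extracellular parts enter the basement membrane, and FREM1 is secreted. In embryonic mouse skin the epidermis makes FRAS1 and FREM2, and FREM1 comes largely from the dermis.

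Fras1 measured 9.11, 9.12, 9.21 and 9.16 in the 4 Dicer mutants and 8.70, 8.49, 8.56 and 8.57 in the 4 controls. Every Dicer mutant lay above every control, a rise of 0.57 (SE 0.0968) or 1.49-fold (limma adjusted p = 0.00217, and 0.000189 to 0.0126 over 22 alternatives). In Yy1 mutants Fras1 measured 8.66, 8.24, 8.17 and 8.24. Specimen 1 lay within the control range and the other 3 below it. The difference of -0.25 (95% interval -0.46 to -0.04, not adjusted) from controls did not pass the test (adjusted p = 0.163). Without Yy1 mutant 1 it was -0.36 and passed (adjusted p = 0.00991, with a range over the 22 alternatives of 0.00991 to 0.701). Between the mutants Fras1 was lower in Yy1 mutants by 0.83 (SE 0.0968), a 1.77-fold difference (adjusted p = 0.000218) that passed in all 22 alternatives and also against a minimum change of 1.2-fold (adjusted p = 0.00699). The order of its means was thus Dicer mutant (9.15), control (8.58) and Yy1 mutant (8.33), and the last 2 did not differ past the test.

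Frem2 measured 8.68, 8.80, 8.64 and 8.77 in Yy1 mutants and 9.15, 9.08, 9.07 and 9.11 in controls. The groups did not overlap, and the gene fell by 0.38 (SE 0.0602) on the log2 scale or 1.30-fold (limma adjusted p = 0.00155, and 0.000143 to 0.0342 over 22 alternatives). Dicer mutants, at 9.25, 9.15, 9.13 and 9.19, overlapped the controls, with a difference of 0.08 (95% interval -0.05 to 0.21; adjusted p = 0.513). Yy1 mutants lay below Dicer mutants by a difference of -0.46 (SE 0.0602; adjusted p = 0.000502).

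Frem1 measured 9.74, 9.91, 9.72 and 9.81 in Yy1 mutants, 9.87, 9.97, 9.87 and 9.96 in Dicer mutants and 10.27, 10.19, 10.15 and 10.08 in controls. Controls were the highest group and did not overlap either mutant, whereas the mutants overlapped each other. Frem1 fell by 0.38 (SE 0.0667) in Yy1 mutants (limma adjusted p = 0.00339, and 0.000225 to 0.0379 over 22 alternatives) and by 0.26 in Dicer mutants (adjusted p = 0.0286). The Dicer call passed in 14 of 22 alternatives, with adjusted p from 0.00532 to 0.0816. It was lost on leaving out Dicer mutant 1 (0.0651), 3 (0.0816) or 4 (0.0566), on leaving out control 1 (0.0794), 2 (0.0514) or 3 (0.0566), in a fit of only the groups compared (0.0507) and without the 3 arrays with raised Eif2s3y (0.0761). The mutants differed by -0.12 (95% interval -0.27 to 0.02; adjusted p = 0.373).

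**Figure D2:**
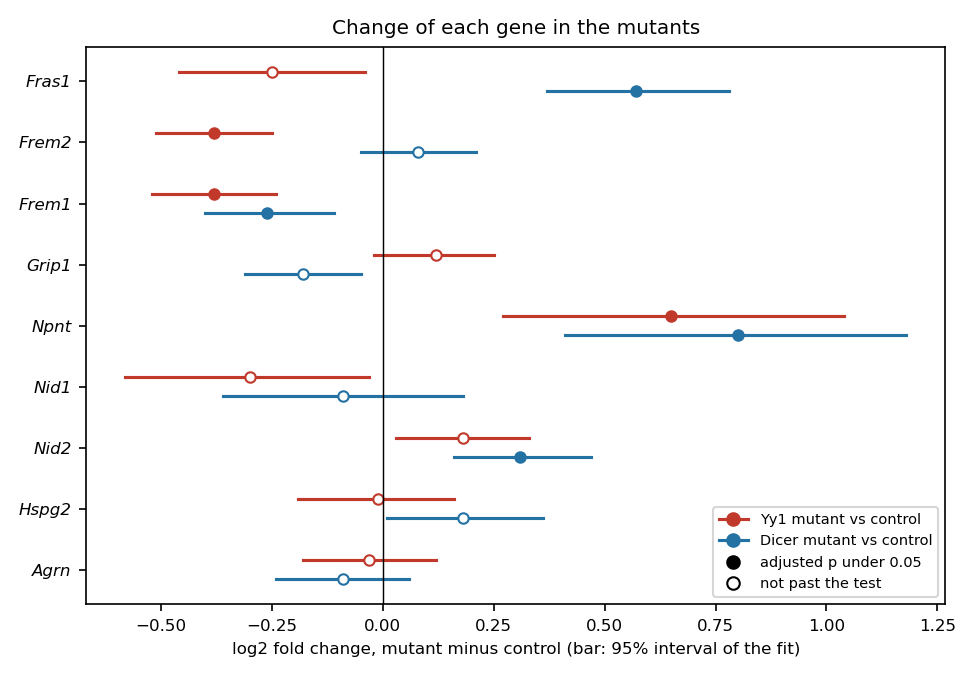
Log2 fold change of each gene (x axis, mutant minus control) with the 95% interval of the fit, not adjusted for multiple testing, for Yy1 mutants above and Dicer mutants below in each row. Filled points passed the test. Fras1 lies at -0.25 in Yy1 mutants and 0.57 in Dicer mutants, and Npnt at 0.65 and 0.80.

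Differences between genes of the complex were also taken within each array, where a ratio shows unequal change of 2 genes. These pairs, and that of the nidogens below, were chosen after the values were seen and are given as a description, with no test. Fras1 minus Frem1 averaged -0.76 ± 0.0796 in Dicer mutants and -1.59 ± 0.0779 in controls (SD, n = 4 each), a difference of 0.83. Fras1 minus Frem2 was 0.50 higher in Dicer mutants than in controls, and Frem2 minus Frem1 0.33 higher, and in all 3 pairs the Dicer mutants did not overlap the controls. The 3 pairs share genes and any 2 of them fix the third, so they restate the changes of the single genes and are not separate observations.

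Yy1 mutants overlapped the controls in these pairs. Frem2 minus Frem1 averaged -1.07 ± 0.0293 in Yy1 mutants and -1.07 ± 0.0686 in controls (SD, n = 4 each). Fras1 minus Frem2 differed by 0.13, with Yy1 mutant 1 at -0.02 and the other 3 at -0.56 to -0.47, against -0.59 to -0.45 in controls.

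**Figure D3:**
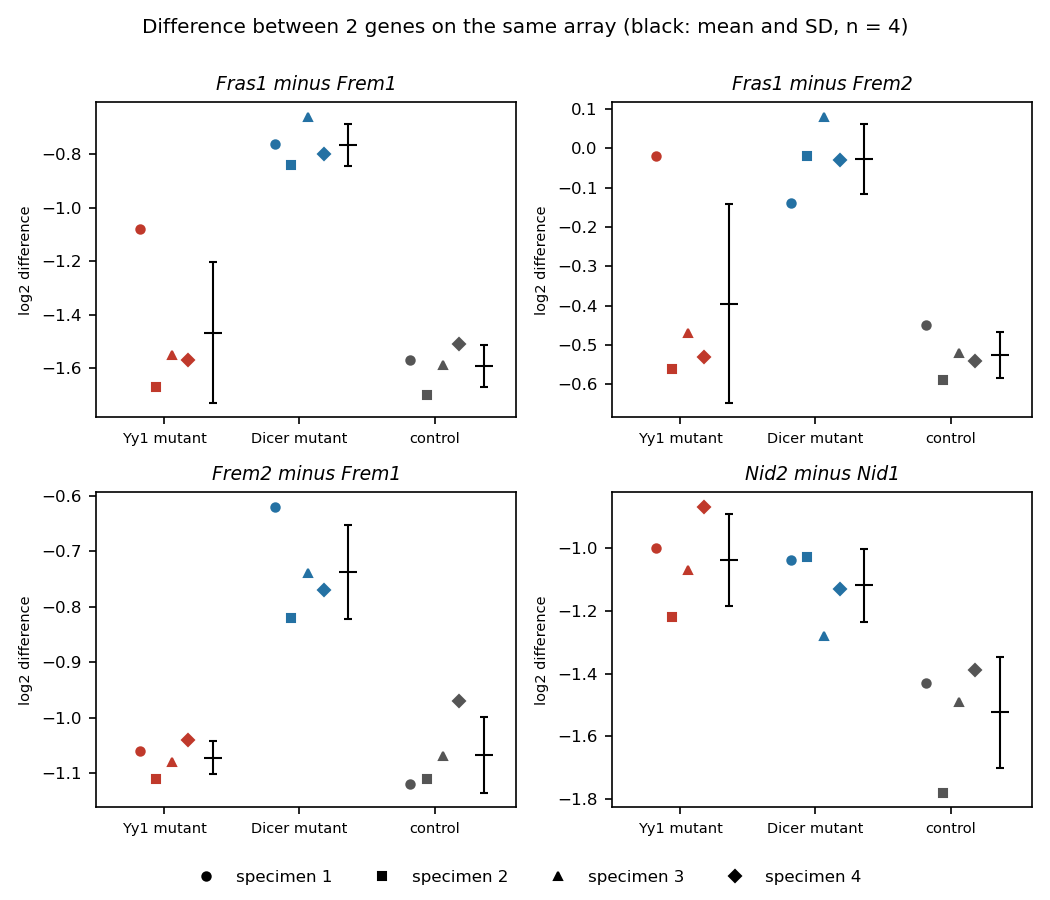
Difference in log2 level between 2 genes on the same array (y axes) by genotype (x axis), a point per array with mean and SD (n = 4) in black. All 4 Dicer mutants lie above all controls in each of the 3 Fraser pairs, and Yy1 mutants and Dicer mutants both lie above controls for Nid2 minus Nid1.

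Grip1 encodes a scaffold protein with PDZ domains that binds FRAS1 and FREM2 in mice and helps bring them to the basal surface of epithelial cells. It measured 6.99, 7.01, 7.04 and 7.09 in Yy1 mutants, 6.79, 6.80, 6.64 and 6.70 in Dicer mutants and 6.84, 6.92, 6.97 and 6.93 in controls. The 3 groups did not overlap, with Yy1 mutants highest and Dicer mutants lowest. Of all genes, 12.6% had Yy1 mutants and controls that did not overlap, 16.0% had Dicer mutants and controls that did not, and 13.8% had the mutants apart. Against controls neither difference passed the test, at 0.12 in Yy1 mutants (limma adjusted p = 0.332) and -0.18 in Dicer mutants (adjusted p = 0.0893, passing in 2 of 22 alternatives, with array weights at 0.0253 and without the dimmest genes at 0.0498, and up to 0.266). Between the mutants Grip1 was higher in Yy1 mutants by 0.30 (SE 0.0612) or 1.23-fold (adjusted p = 0.0112, with 0.00301 to 0.166 over 22 alternatives), and only the fit without the 3 arrays with raised Eif2s3y lost that call (0.166). Across the 12 arrays Grip1 correlated with Fras1 at Pearson r = -0.93, and with genotype means removed at -0.48. With Frem2 the values were -0.78 and, with genotype means removed, 0.10. These arrays share genotype differences, so the values are a description.

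Npnt was higher in both mutants, but 1 control array reached into the range of the Yy1 mutants. Nephronectin carries EGF-like repeats, an RGD site and a MAM domain, and in the mouse kidney it is the ligand that integrin alpha8 beta1 needs for budding of the ureter. It measured 10.57, 11.05, 10.65 and 10.43 in Yy1 mutants, 10.78, 10.86, 10.76 and 10.88 in Dicer mutants, and 9.79, 10.67, 9.82 and 9.81 in controls. Dicer mutants lay above all 4 controls, and Yy1 mutants above 3 of them, since control 2 (10.67) reached into their range.

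In Dicer mutants Npnt rose by 0.80 (SE 0.179) or 1.74-fold (limma adjusted p = 0.0132, and 0.00023 to 0.0498 over 22 alternatives). In Yy1 mutants it was higher by 0.65 (SE 0.179) or 1.57-fold (adjusted p = 0.0450), with 0.000832 to 0.340 over the alternatives, of which 8 of 22 passed. Without control 2 the rise was 1.01 in Dicer mutants (adjusted p = 0.00023) and 0.87 in Yy1 mutants (adjusted p = 0.000832). The Yy1 call was lost without control 1 (0.133), control 3 (0.119), control 4 (0.107), Yy1 mutant 1 (0.0796), Yy1 mutant 2 (0.116), Yy1 mutant 3 (0.0922), or any 1 Dicer mutant (0.0570 to 0.0612). It was also lost without the 3 arrays with raised Eif2s3y (a difference of 0.48, adjusted p = 0.340), with Xist minus Eif2s3y as a covariate (0.137), with only the groups compared (0.0990) and with an intensity trend (0.0679). The mutants differed by -0.15 (95% interval -0.53 to 0.24; adjusted p = 0.735).

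**Figure D4:**
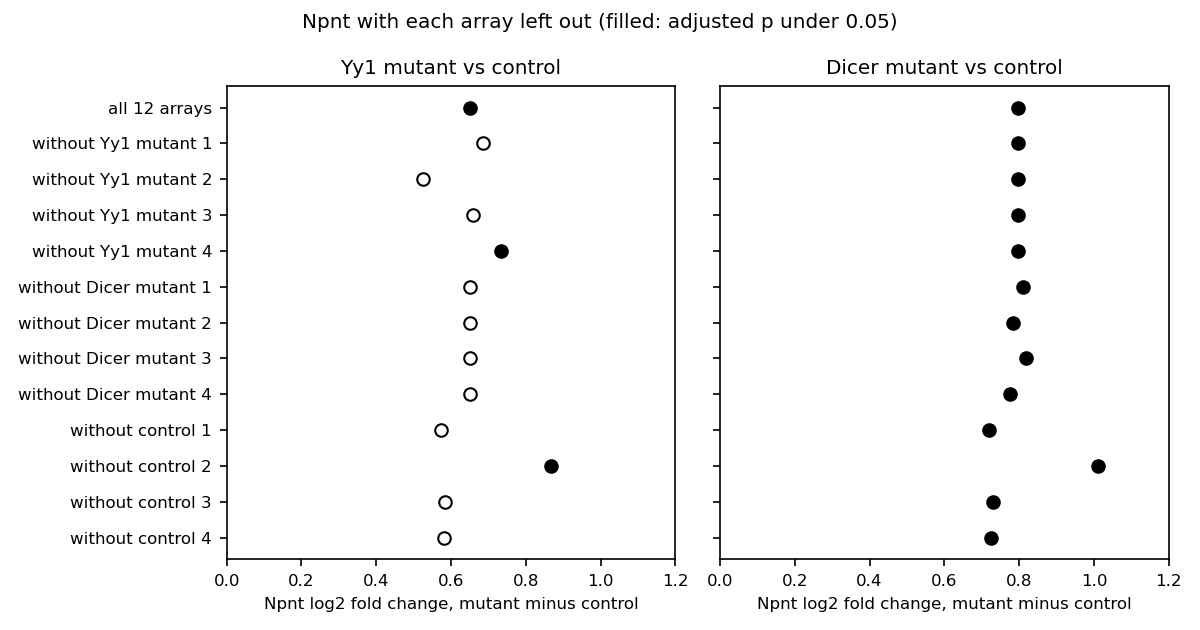
Npnt log2 fold change (x axis, mutant minus control) with all 12 arrays and with each array left out (y axis), for Yy1 mutants at left and Dicer mutants at right. Filled points have adjusted p under 0.05. The change spans 0.53 to 0.87 in Yy1 mutants and 0.72 to 1.01 in Dicer mutants, highest without control 2 in both.

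The genes whose level followed Npnt most closely over the 12 arrays were Bmp2k (Pearson r = 0.978), the metalloproteinase gene Mmp19 (0.966) and the sheddase gene Adam9 (0.962). Adam9 ran from 8.99 to 9.36 in Yy1 mutants, 9.26 to 9.36 in Dicer mutants and 8.45 to 8.98 in controls. Control 2 was the highest control for all 3, which their choice by correlation with Npnt over the same arrays largely fixes. For Fras1 they were Tmem179b (0.972), Fndc3b (0.965) and Mta3 (0.964), and for Frem2 the phosphatase gene Dusp9 (0.965), Lin7a (0.959) and Dcbld1 (0.956). Dusp9 ran from 6.91 to 7.06 in Yy1 mutants, 7.95 to 8.29 in Dicer mutants and 7.85 to 8.08 in controls. These correlations rest on arrays that share 3 genotypes.

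Among the linkers, Nid2 rose in Dicer mutants and the others did not pass the test on their main probe sets. Nidogen 1 and nidogen 2 bind laminin and collagen IV, and mice without both have disturbed lung basement membranes. Nid2 measured 9.84, 9.86, 9.81 and 9.92 in Dicer mutants and 9.62, 9.58, 9.48 and 9.50 in controls. The groups did not overlap, and the rise was 0.31 (SE 0.0707) or 1.24-fold (limma adjusted p = 0.0134, and 0.00198 to 0.0493 over 22 alternatives). In Yy1 mutants Nid2 measured 9.71, 9.90, 9.67 and 9.61, overlapping the controls at 1 specimen, with a difference of 0.18 (95% interval 0.03 to 0.33; adjusted p = 0.176).

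Nid1 had 2 probe sets. The brighter one measured 10.70, 11.12, 10.74 and 10.49 in Yy1 mutants, 10.88, 10.90, 11.09 and 11.04 in Dicer mutants and 11.04, 11.36, 10.97 and 10.89 in controls. All groups overlapped, and the Yy1 mutant difference of -0.30 (SE 0.127) did not pass (limma adjusted p = 0.203, and 0.0443 to 0.435 over 22 alternatives), passing only without Yy1 mutant 2 (-0.42, adjusted p = 0.0443). The second probe set measured 9.87, 9.91, 9.95 and 9.70 in Yy1 mutants and 10.29, 10.13, 10.13 and 10.10 in controls. These did not overlap, and its difference of -0.31 (SE 0.0749) passed when all 23521 probe sets were tested singly (adjusted p = 0.0268). In that test it was also lower in Yy1 than in Dicer mutants, by a difference of -0.32 (adjusted p = 0.0290), and Dicer mutants differed from controls by 0.01 (adjusted p = 0.961). The probe sets thus gave nearly the same size of change in Yy1 mutants and differed in spread, with SDs of 0.261 and 0.112 in that group.

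On the main probe sets, Nid2 minus Nid1 averaged -1.04 ± 0.144 in Yy1 mutants, -1.12 ± 0.114 in Dicer mutants and -1.52 ± 0.175 in controls (SD, n = 4 each). It was 0.48 higher in Yy1 mutants and 0.40 higher in Dicer mutants than in controls, with no overlap, and the mutants differed by 0.08 and overlapped.

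Hspg2 encodes perlecan and Agrn encodes agrin, the large heparan sulphate proteoglycans of basement membranes. Hspg2 measured 9.92, 10.00, 9.88 and 9.65 in Yy1 mutants, 10.21, 9.95, 10.02 and 10.05 in Dicer mutants and 9.86, 9.90, 9.85 and 9.89 in controls. All Dicer mutants lay above all controls, but the difference of 0.18 (95% interval 0.01 to 0.36) did not pass (limma adjusted p = 0.198, and 0.105 to 0.358 over the alternatives). In Yy1 mutants it was -0.01 (95% interval -0.19 to 0.16; adjusted p = 0.957). Agrn measured 9.38, 9.22, 9.15 and 9.15 in Yy1 mutants, 9.23, 9.09, 9.16 and 9.19 in Dicer mutants and 9.30, 9.17, 9.24 and 9.31 in controls, and all groups overlapped. Its differences from controls were -0.03 in Yy1 mutants (95% interval -0.18 to 0.12) and -0.09 in Dicer mutants (-0.24 to 0.06), with adjusted p of 0.876 and 0.504.

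Receptors and partners of these proteins were read from a list of 14 genes, all measured. In Yy1 mutants 2 rose and 2 fell, in Dicer mutants 4 rose and 1 fell, and between the mutants 1 was higher and 3 lower in Yy1 mutants. Of all genes, 2.77% rose and 3.84% fell in Yy1 mutants, and 4.78% rose and 3.97% fell in Dicer mutants. Between the mutants 1.57% of all genes were higher and 3.39% lower in Yy1 mutants. The list was chosen with earlier results of these data known. The list's median change was -0.03 in Yy1 mutants and 0.04 in Dicer mutants.

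Itga8, the integrin chain that with the beta1 chain forms the nephronectin receptor, measured 10.31, 10.24, 10.29 and 10.38 in Yy1 mutants, 9.92, 10.22, 9.97 and 10.05 in Dicer mutants and 9.54, 9.48, 9.44 and 9.46 in controls. The 3 groups were fully apart, with controls lowest. It rose by 0.82 (SE 0.0706) in Yy1 mutants (limma adjusted p = 1.18e-05) and by 0.56 (SE 0.0706) in Dicer mutants (adjusted p = 0.000263), and both calls passed in all 22 alternatives. The mutants differed by 0.27 (adjusted p = 0.0460), a call that passed in 6 of 22 alternatives, with adjusted p from 0.00981 to 0.210, and was lost without any 1 array except Dicer mutant 2, at 0.0520 to 0.133. Itgb1, the partner chain, differed by 0.07 in Yy1 mutants (adjusted p = 0.584) and 0.09 in Dicer mutants (adjusted p = 0.352), at 10.64 to 10.72 in Yy1 mutants, 10.66 to 10.79 in Dicer mutants and 10.61 to 10.64 in controls.

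Itgav, another integrin chain that recognises RGD sites, rose by 0.27 in Yy1 mutants (limma adjusted p = 0.0193, and 0.00324 to 0.630 over 22 alternatives) and by 0.42 in Dicer mutants (adjusted p = 0.00101, and 5.73e-05 to 0.249). Its probe sets disagreed, and their mean gave 0.08 (adjusted p = 0.630) and 0.16 (0.249). The Yy1 call was also lost without control 4 (0.0508), without Yy1 mutant 3 (0.0647), with the Xist covariate (0.0685) and without the 3 arrays with raised Eif2s3y (0.197). Itga6, a laminin receptor chain, rose in Dicer mutants by 0.32 (adjusted p = 0.0138, and 0.0567 without the 3 arrays with raised Eif2s3y, within 0.0021 to 0.0567 over the alternatives) and was lower in Yy1 than in Dicer mutants by a difference of -0.42 (adjusted p = 0.00313).

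Egfl6, a relative of nephronectin that also binds integrin alpha8 beta1, measured 11.38, 11.33, 11.50 and 11.30 in Dicer mutants and 10.37, 11.00, 10.28 and 10.33 in controls. It rose there by 0.88 (SE 0.139; limma adjusted p = 0.00145), or by 1.05 without control 2, which again was the highest control. In Yy1 mutants it read 10.09, 10.30, 9.96 and 9.93, a difference of -0.42 (adjusted p = 0.0973), or -0.26 without control 2 (adjusted p = 0.138), and between the mutants it was lower in Yy1 mutants, with a difference of -1.30 (adjusted p = 0.000107).

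Vwa2, the gene of AMACO, a basement membrane protein found with FRAS1 in mice, measured 6.77, 6.85, 6.66 and 6.80 in Yy1 mutants and 7.24, 7.49, 7.26 and 7.32 in controls. It fell by 0.56 (SE 0.0739) on the log2 scale (limma adjusted p = 0.000422), with no overlap. Dicer mutants, at 7.16 to 7.35, differed from controls by -0.06 (adjusted p = 0.701) and from Yy1 mutants, in which it was lower, by -0.50 as Yy1 minus Dicer mutant (adjusted p = 0.00132). Frem3, the remaining Frem family gene, was dim at 3.30 to 3.69 in Yy1 mutants, 3.52 to 4.24 in Dicer mutants and 3.40 to 3.81 in controls, and did not pass (adjusted p = 0.846 in Yy1 mutants and 0.463 in Dicer mutants). Ret, the receptor of Gdnf, a growth factor whose expression in the mouse kidney needs Itga8 and Npnt, fell by 0.93 in Yy1 mutants (adjusted p = 0.000109) and by 1.15 in Dicer mutants (adjusted p = 1.7e-05). Gdnf itself was dim, averaging 4.47 in Yy1 mutants, 4.15 in Dicer mutants and 4.32 in controls. Its differences of 0.15 in Yy1 mutants and -0.17 in Dicer mutants did not pass (adjusted p = 0.723 and 0.63).

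**Figure D5:**
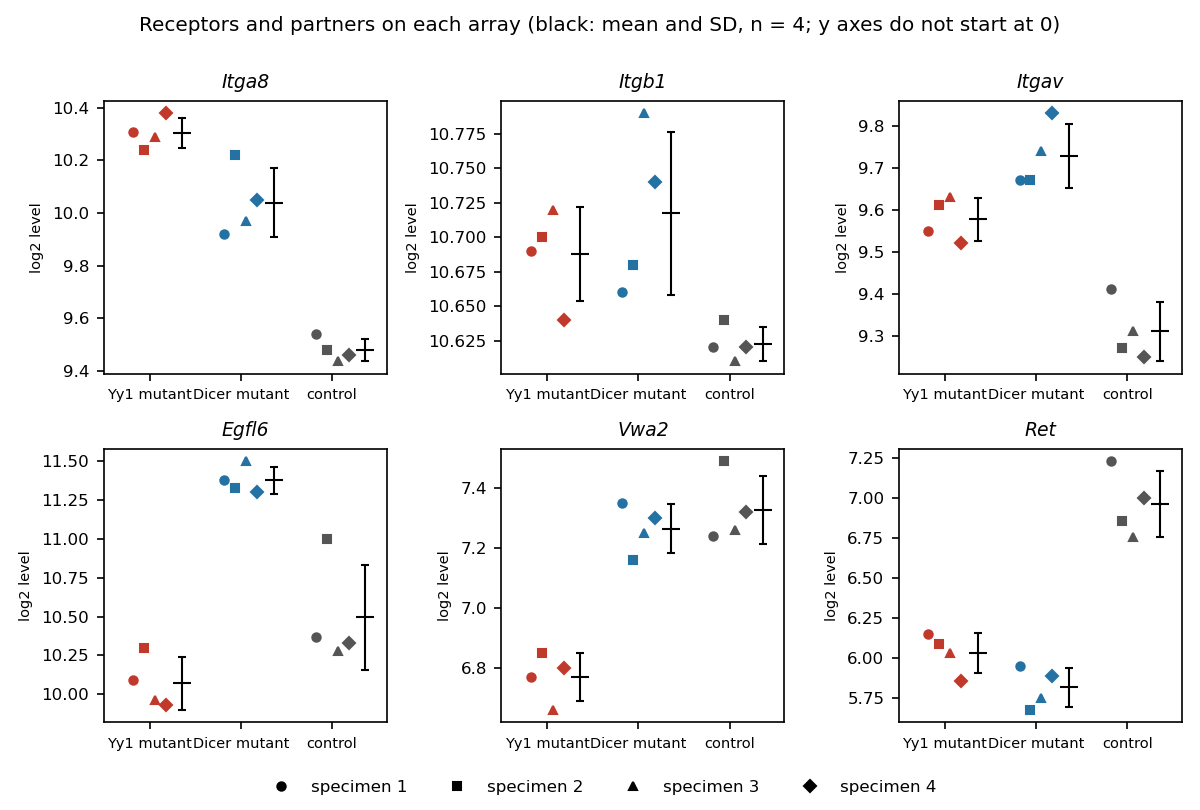
Log2 levels of 6 receptor and partner genes (y axes, each on its own range) by genotype (x axis), a point per array with mean and SD (n = 4) in black. Itga8 was above controls (9.44 to 9.54) in all 8 mutants, Vwa2 was low on the 4 Yy1 mutant arrays at 6.66 to 6.85, and Egfl6 was highest in Dicer mutants at 11.30 to 11.50.

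Other basement membrane genes, from a list of 31 measured, gave a setting for these values. Like the list above, it was chosen with earlier results of these data known. In Yy1 mutants 13 fell and 0 rose, with a median of -0.21. With 1 array left out, 9 to 15 were called there, and 6 against a minimum change of 1.2-fold. In Dicer mutants 7 rose and 5 fell, with a median of -0.05. The shares of all genes that rose and fell were 2.77% and 3.84% in Yy1 mutants and 4.78% and 3.97% in Dicer mutants. Between the mutants, 1.57% of all genes were higher and 3.39% lower in Yy1 mutants. Between the mutants 10 were lower and 0 higher in Yy1 mutants, and without Yy1 mutant 3, Yy1 mutant 4 or Dicer mutant 3 this count was 6, and without the 3 arrays with raised Eif2s3y it was 5. The laminin chain Lama3, as Fras1, rose in Dicer mutants, by 0.70 (limma adjusted p = 0.000553), and unlike Fras1 fell past the test in Yy1 mutants, by 1.04 (adjusted p = 2.73e-05). Lama1, another laminin chain, rose in Dicer mutants by 0.76 (adjusted p = 0.000116), and its Yy1 mutant difference of 0.18 did not pass (0.278). Tinag, a basement membrane glycoprotein gene, fell by 3.06 in Yy1 mutants and by 1.75 in Dicer mutants (adjusted p = 1.72e-06 and 0.000153). It was dim in Yy1 mutants, at 5.22 to 5.45, below the array medians of 5.99 to 6.08, which limits how well the size of its fall there is known. In Yy1 and Dicer mutants Lamb3 fell by 0.97 and 0.59 (0.000138 and 0.00499), and Smoc2 by 1.46 and 1.27 (0.000133 and 0.000349). Col4a2, a chain of the collagen IV network that nidogens bind, was lower in Yy1 than in Dicer mutants by a difference of -0.44 (adjusted p = 0.00292).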

How the data were processed

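Biotin-labelled total lung RNA at E14.5 was hybridised to single-channel Affymetrix arrays, per the labels. The authors deposited log2 values per probe set. How they summarised and normalised them is not given in the sources used here. The log base is inferred from the values (1.10 to 13.58). Depth has no counterpart on arrays, and 4 arrays per genotype limit the precision.

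Of 41345 probe sets, 23521 had exactly 1 gene symbol in the platform annotation, and the one with the highest mean stood for each of 22180 genes. Pairs of arrays with identical values numbered 0. The 3 genotypes were fitted in 1 linear model with limma 3.58.1 (R 4.3.3), with 9 residual degrees of freedom, empirical Bayes moderation and a two-sided test. Tables and plots used Python 3.11.15, pandas 2.3.3, numpy 2.4.6 and matplotlib 3.10.9. The fit was tested on simulated data. Alternatives were quantile normalisation, equal medians, leaving out the 30% of genes with the lowest means, averaging a gene's probe sets, an intensity trend with robust prior, only the groups compared, array weights, a replicate block, treatment of raised Eif2s3y (arrays left out, or a covariate), a minimum change of 1.2-fold, and each array left out. The 22 alternatives quoted with adjusted p leave out the minimum change, which tests another hypothesis. Single probe sets and within-array pairs were added after the values were seen, and the pairs are described without a test.

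Named genes were the 9 members, the targeted genes, Itga8, Itgb1, Egfl6, Frem3, Vwa2, up to 4 called genes with the smallest p per list and comparison, and the 3 genes most correlated with Npnt, Fras1 and Frem2. Gdnf was added beside Ret after the values were seen. The members and lists were chosen with earlier results of these data known. Of the marker genes not described in the report, 7 of 10 for leukocytes rose in Yy1 mutants and 8 of 10 in Dicer mutants. For mesothelium 1 and 2 of 5 rose, for neural cells 1 and 1 of 4, and for erythroid cells 0 and 1 of 5. Neither the 6 liver nor the 8 skeletal and heart muscle genes had a call against controls by limma. At an unadjusted p under 0.05 the liver genes had 0 in Yy1 mutants and 1 in Dicer mutants and the muscle genes 0 in both. Single mutant arrays were uneven, with log2 summed muscle levels of 9.41 to 10.37 in Yy1 mutants, 9.38 to 10.96 in Dicer mutants and 9.60 to 9.77 in controls. Summed liver levels were 8.49 to 8.64, 8.50 to 9.30 and 8.43 to 8.72 in the same order. Such spread makes a call harder to reach, and whether single specimens held other tissue was not tested.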

Additional observations from a re-analysis of the deposited data

Results flagged for a closer look

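Dixon's test was read over the 9 genes and 14 of the receptor, partner and basement membrane genes named in the report, all but Gdnf. There 6 of 69 groups of 4 arrays of a genotype held 1 array far from the other 3, where chance gives about 1 in 20. Control 2 was the far array for Npnt (10.67), Egfl6 (11.00) and Itga6 (9.80), each time above the other controls. Yy1 mutant 1 was far for Fras1, at 8.66, and for Tinag, at 5.45, both above the other 3, and Yy1 mutant 4 was low for Col4a2, at 8.36. Over all 22180 genes, control 2 was the far array for 2.08% and Yy1 mutant 1 for 1.07%. Controls 1, 3 and 4 were far for 1.72%, 0.685% and 1.21%, and the 12 arrays together ran from 0.685% to 2.33%.

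The change against controls differed between the mutants, tested directly as Yy1 minus Dicer mutant in limma, for 3 of the 9 genes. These were Fras1 (-0.83), Frem2 (-0.46) and Grip1 (0.30). Among the receptors and partners it differed for Itga8 (0.27), Egfl6 (-1.30), Vwa2 (-0.50) and Itga6 (-0.42), and among other basement membrane genes that are named for Tinag (-1.31), Lama3 (-1.74), Lama1 (-0.58) and Col4a2 (-0.44). Without the 3 arrays with raised Eif2s3y, Grip1 (adjusted p = 0.166), Itga8 (0.210) and Tinag (0.0767) lost this call. As a whole, 4.96% of all genes differed between the mutants (1.57% higher and 3.39% lower in Yy1 mutants). The 9 genes and the lists were chosen with earlier results of these data known.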

How the results depend on the processing

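Of the calls on members, Frem1 and Frem2 in Yy1 mutants, Fras1, Npnt and Nid2 in Dicer mutants, and Fras1 and Frem2 between the mutants passed in all 22 alternatives. Against a minimum change of 1.2-fold, members called numbered 0 in Yy1 mutants, 0 in Dicer mutants and 1 between the mutants, and genes called 256, 275 and 183. This alternative tests a stricter hypothesis. Without the 3 arrays with raised Eif2s3y, genes called were 606 in Yy1 mutants, 976 in Dicer mutants and 435 between the mutants, with fewer samples. With array weights 1806 genes differed between the mutants, and the cause was not tested. With 1 array left out, members called ranged from 2 to 3 in Yy1 mutants, 3 to 4 in Dicer mutants and 3 to 3 between them, and genes called from 1020 to 1455, 1275 to 1991 and 726 to 1180.

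Differences near 0 that had not passed the test changed sign in 8 cases. In Yy1 mutants these were Hspg2 after quantile normalisation (0.00323) and without Yy1 mutant 4 (-0.0618 to 0.0563 over single arrays), Agrn without the raised arrays (0.0101), and Frem3 without them (0.0459), with the Xist covariate (0.00532) and without Yy1 mutant 2 (-0.144 to 0.000357). In Dicer mutants they were Nid1 (-0.148 to 0.0076) and Yy1 (-0.0543 to 0.00505), both without control 2. The cause was not tested.

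Same-numbered specimens deviated from their genotype means with correlations of -0.161 to 0.19 over 12 pairs, and differently numbered ones with -0.259 to 0.214 over 36 pairs. No stronger shared deviation was seen for equal numbers, which cannot exclude that the numbers pair specimens. With the replicate number as a block, 3, 4 and 3 members and 1301, 1848 and 997 genes were called in Yy1 mutants, Dicer mutants and between them. In this block Itga8 lost its call between the mutants (adjusted p = 0.0813). Arrays per genotype, 4, limit all values.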
